A study of Mus musculus with 15 samples.

Results

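Aminoacyl-tRNA synthetases are the enzymes that join each amino acid to its transfer RNA (tRNA), the step that lets the ribosome read codons as amino acids. Mammalian cells use a cytosolic set for most protein synthesis and a separate mitochondrial set, also encoded in the nucleus, for the few proteins made inside mitochondria. Many cytosolic synthetase genes are known targets of ATF4, the transcription factor of the amino acid response, which is translated more when uncharged tRNA or other stress slows initiation. The genes were chosen by name and function, 20 cytosolic and 16 mitochondrial synthetases. Of these 36, 34 were found among the 22180 genes measured by a probe set with 1 annotated symbol, which makes 18 cytosolic and 16 mitochondrial genes. The alanyl and aspartyl enzymes of the cytosol, Aars and Dars, were not found under this rule and were not analysed here; the probe set of Aars is annotated with 2 genes. Mars, the methionyl enzyme, carries the symbol Mars1 in the annotation. Gars and Kars, counted here with the cytosolic genes, are known to make the mitochondrial glycyl and lysyl enzymes too.

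The data come from 15 one-colour Affymetrix arrays, 3 in each of 5 groups, of RNA from melan-Ink4a-Arf-1, a single immortal mouse melanocyte line (Cdkn2a tm1RDp/tm1RDp). All groups therefore lack Cdkn2a, and all grew at 37 °C in RPMI containing cholera toxin (200 pM), phorbol ester (200 nM) and serum (10%). Si1 and Si6 cells received 1 of 2 small interfering RNAs (siRNAs) against Hif1a, which encodes the subunit of HIF-1 that oxygen controls, and 24 h later were placed for 24 h in 1% oxygen, 5% CO2 and 94% nitrogen. The negative control and the hypoxia control had the same 24 h of hypoxia, and the labels do not say what either received besides. Normoxic cells stayed at about 21% oxygen and 10% CO2, so that oxygen and CO2 changed together and cannot be told apart. The comparisons address how low oxygen changes melanocyte expression and what loss of Hif1a changes within hypoxia.

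The deposited values are log2 intensities of probe sets, so a difference of 1 is a doubling, and the number of arrays limits their precision. A gene was called higher or lower when limma's two-sided test, Benjamini-Hochberg adjusted over all 22180 genes, gave an adjusted p below 0.05; differences are given ± the standard error (SE) of the fit. The series describes the samples as biological triplicates. Arrays of the same group correlated at 0.9963 to 0.9978, against 0.9763 to 0.9946 between groups, and array medians lay between 6.52 and 6.61. Hif1a averaged 8.65 in Si1 and 8.93 in Si6 cells, against 10.63 in the negative control, differences of -1.98 (adjusted p = 1.7e-12) and -1.70 (adjusted p = 1.8e-11). All 10 melanocyte markers lay above the median gene, and the markers' mean level was 10.56 in Si1, 11.15 in Si6, 10.86 in the negative control, 11.41 in the hypoxia control and 11.75 in normoxic cells. Lists for fibroblasts, keratinocytes, macrophages and endothelium averaged 5.83 to 6.47, and of their 15 measured genes only Col1a1 and Cd68 lay above the median gene.

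Nearly all cytosolic synthetases were higher with either siRNA than in the negative control. With Si1, 17 of 18 rose and 0 fell, with a median log2 difference of 0.71 (range 0.04 to 1.46). With Si6, again 17 of 18 rose and 0 fell, with a median of 0.53 (0.09 to 1.23). The same 17 genes rose with both siRNAs, and the exception each time was Qars, the glutaminyl enzyme. Over all genes, 20.2% were called higher and 14.8% lower with Si1, 17.0% higher and 11.9% lower with Si6, and the median difference was -0.01 in both. The 2 siRNA comparisons share the negative control arrays, so their likeness is partly built in.

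**Figure D1:**
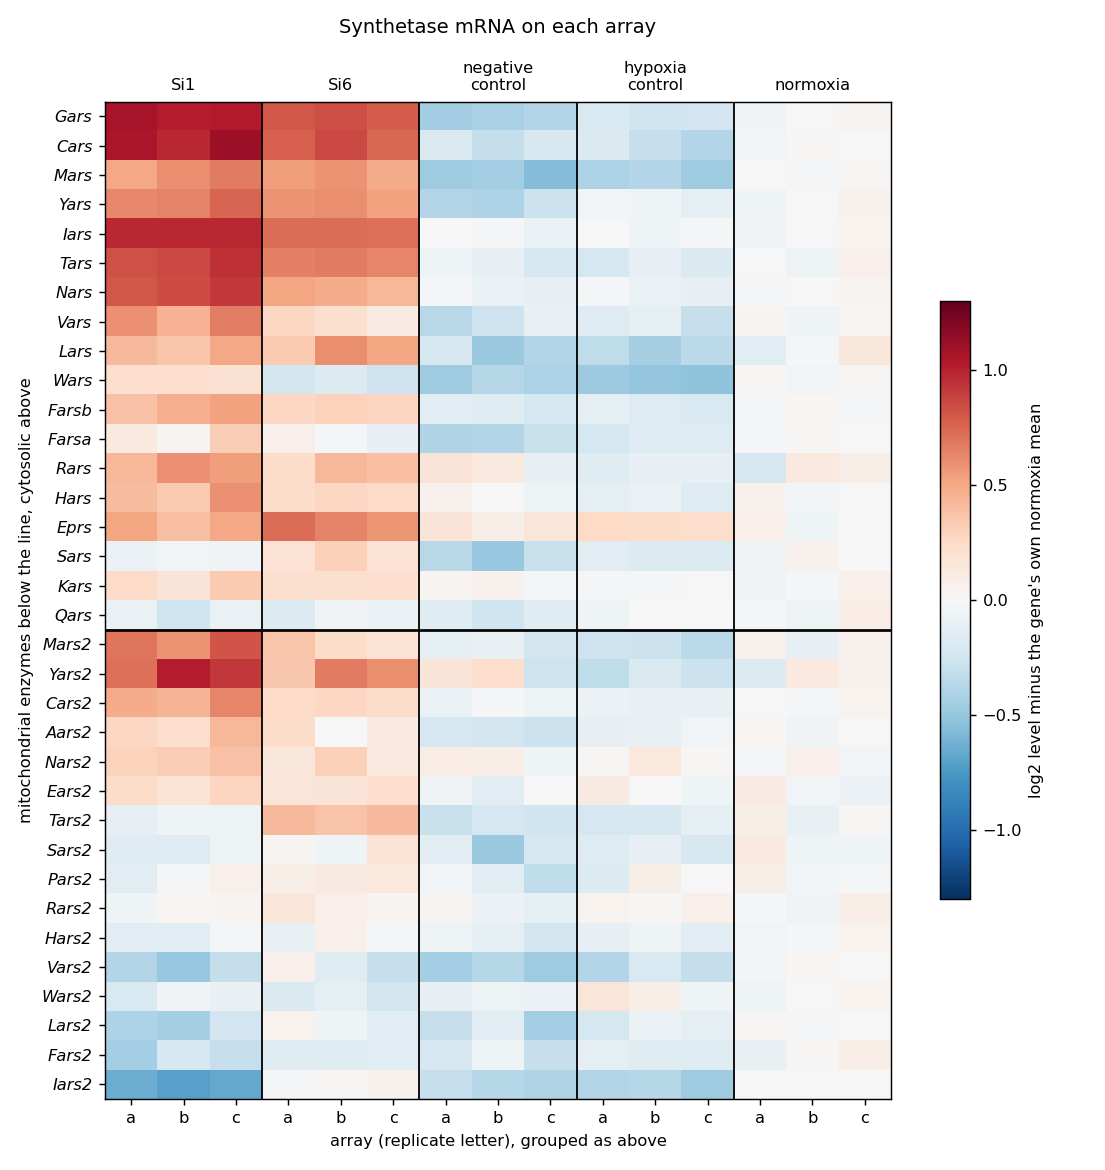
Each synthetase (rows) on each of the 15 arrays (columns), coloured by its deposited log2 intensity minus its own normoxia mean. Most of the cytosolic block is high on the Si1 and Si6 arrays and low on the arrays of both hypoxic controls. By group mean, Qars is below normoxia with both siRNAs, Wars with Si6 and Sars with Si1, and Eprs is above normoxia in both controls. The mitochondrial block is mixed.

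Gars, the glycyl enzyme (probe set 17458771), moved most. It read 11.33, 11.28 and 11.29 in Si1 cells and 11.07, 11.10 and 11.05 in Si6 cells, against 9.81, 9.84 and 9.88 in the negative control. The 3 groups did not overlap, and the differences were 1.46 ± 0.046 with Si1 (2.75-fold, adjusted p = 6.0e-12) and 1.23 ± 0.046 with Si6 (2.35-fold, adjusted p = 6.6e-11). Cars, the cysteinyl enzyme, read 10.14, 10.07 and 10.20 in Si1 and 9.87, 9.95 and 9.84 in Si6 cells, against 8.90, 8.78 and 8.88 in the negative control. It was 1.29 ± 0.06 higher with Si1 (2.44-fold, adjusted p = 2.3e-10) and 1.03 ± 0.06 higher with Si6 (2.05-fold, adjusted p = 5.3e-09). Every Si1 and Si6 array of both genes lay above every negative control array. Mars read 9.83, 9.93 and 10.01 in Si1 and 9.87, 9.91 and 9.81 in Si6 cells, against 8.87, 8.89 and 8.77 in the negative control. The siRNA arrays of Mars overlap each other and lie far above the controls, with differences of 1.08 ± 0.057 (adjusted p = 8.6e-10) and 1.02 ± 0.057 (adjusted p = 3.9e-09).

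In the order of the Si1 differences, Yars, Iars, Tars, Nars, Vars and Lars came next. Yars, the tyrosyl enzyme, read 9.96, 9.98 and 10.10 in Si1 and 9.92, 9.94 and 9.86 in Si6 cells, against 8.96, 8.94 and 9.06 in the negative control. Its differences were 1.03 with Si1 (adjusted p = 1.3e-09) and 0.91 with Si6 (adjusted p = 1.1e-08). Iars, the isoleucyl enzyme, read 11.83 on each Si1 array and 11.58, 11.58 and 11.57 in Si6 cells, against 10.85, 10.82 and 10.76 in the negative control. Each group of Iars formed a tight cluster of its own, 1.02 ± 0.047 higher with Si1 (adjusted p = 1.9e-10) and 0.77 higher with Si6 (adjusted p = 9.0e-09). Tars, the threonyl enzyme, was 1.01 ± 0.059 higher with Si1 (adjusted p = 2.7e-09) and 0.79 higher with Si6. Nars, the asparaginyl enzyme, read 11.92, 11.96 and 12.03 in Si1 and 11.62, 11.59 and 11.54 in Si6 cells, against 11.09, 11.02 and 11.00 in the negative control. Vars (valyl) was 0.82 ± 0.078 higher with Si1 and 0.44 higher with Si6, and Lars (leucyl) 0.78 ± 0.086 and 0.84. Leucyl is thus one of the enzymes for which Si6 gave at least as large a difference as Si1, with overlapping siRNA arrays of 10.01, 9.95 and 10.09 in Si1 and 9.93, 10.19 and 10.10 in Si6 cells, against 9.37, 9.11 and 9.21 in the negative control.

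Phenylalanyl-tRNA synthetase is built of an α subunit, Farsa, and a β subunit, Farsb, and both subunits rose. Farsb read 10.13, 10.22 and 10.27 in Si1 and 10.02, 10.05 and 10.03 in Si6 cells, against 9.61, 9.59 and 9.52 in the negative control, differences of 0.63 (adjusted p = 7.8e-08) and 0.46 (adjusted p = 4.2e-06). Farsa read 9.22, 9.13 and 9.41 in Si1 and 9.16, 9.06 and 8.98 in Si6 cells, against 8.70, 8.71 and 8.80 in the negative control, differences of 0.51 (adjusted p = 1.5e-05) and 0.33 (adjusted p = 0.001). Wars, the tryptophanyl enzyme, which is known in many cells as an interferon-induced gene, was 0.63 higher with Si1 (adjusted p = 3.7e-08) and 0.19 higher with Si6 (adjusted p = 0.006).

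The remaining genes had the smaller rises with Si1, though not with Si6, where Sars and Eprs exceeded several genes given above. Rars (arginyl) was 0.46 ± 0.094 higher with Si1 and 0.29 higher with Si6 (adjusted p = 0.001 and 0.028), and Hars (histidyl) 0.45 ± 0.063 and 0.26 (adjusted p = 3.0e-05 and 0.005). Eprs, which carries the glutamyl and prolyl enzymes in 1 protein, was 0.33 higher with Si1 (adjusted p = 2.5e-04) and 0.51 higher with Si6 (adjusted p = 5.6e-06). Sars, the seryl enzyme, was 0.32 and 0.61 higher (adjusted p = 3.1e-04 and 1.0e-06). Kars read 10.00, 9.92 and 10.09 in Si1 and 9.96, 9.96 and 9.97 in Si6 cells, against 9.79, 9.81 and 9.72 in the negative control, differences of 0.23 ± 0.054 (adjusted p = 0.003) and 0.19 (adjusted p = 0.013). Its rise with Si6 missed the threshold without negative control c (adjusted p = 0.057), and that of Rars without negative control c, Si6 b or Si6 c (adjusted p = 0.081 to 0.145). Qars read 10.29, 10.12 and 10.29 in Si1 and 10.20, 10.33 and 10.30 in Si6 cells, against 10.22, 10.12 and 10.22 in the negative control, groups that overlap (0.04 ± 0.064, adjusted p = 0.662, and 0.09, adjusted p = 0.378).

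**Figure D2:**
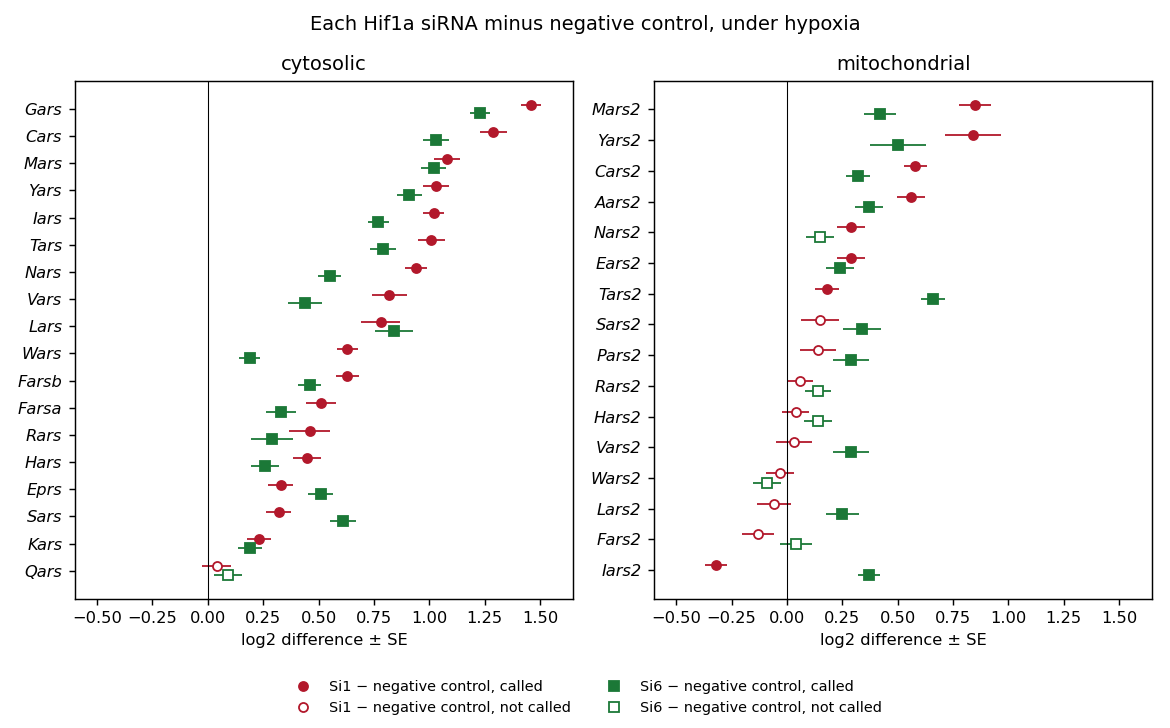
Log2 difference from the negative control with its SE for each synthetase, for Si1 (circles) and Si6 (squares), filled where called. The 17 called cytosolic genes lie to the right of 0 with both siRNAs, and among mitochondrial genes Iars2 lies at -0.32 with Si1 and at 0.37 with Si6.

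The mitochondrial synthetases moved less and less evenly. With Si1, 7 of 16 rose and 1 fell (median difference 0.14, range -0.32 to 0.85), against 20.2% and 14.8% of all genes. With Si6, 11 of 16 rose and 0 fell (median 0.29, range -0.09 to 0.66), against 17.0% and 11.9% of all genes. Another quantile normalization gave 6 higher and 2 lower with Si1 and a median of 0.08, since Tars2 lost its call (adjusted p = 0.119) and Fars2 was called lower (adjusted p = 0.014). Rises with both siRNAs were found for 6 genes: Aars2, Cars2, Ears2, Mars2, Tars2 and Yars2. Nars2 rose with Si1 alone by the test, and Lars2, Pars2, Sars2 and Vars2 with Si6 alone; of these 5, the direct test of Si1 minus Si6 called Lars2 and Vars2. The Si6 rise of Lars2 missed the threshold without negative control a or c or Si6 a or b (adjusted p = 0.054 to 0.119), that of Pars2 without negative control c (adjusted p = 0.082) and that of Vars2 without Si6 a (adjusted p = 0.060). With another quantile normalization the rise of Sars2 missed it too (adjusted p = 0.053). Fars2, Hars2, Rars2 and Wars2 passed with neither, their differences lying between -0.13 and 0.14.

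Mars2, the mitochondrial methionyl enzyme, read 8.51, 8.39 and 8.63 in Si1 and 8.17, 8.05 and 8.0 in Si6 cells, against 7.69, 7.71 and 7.57 in the negative control. The groups did not overlap, and the differences were 0.85 ± 0.072 (adjusted p = 1.3e-07) and 0.42 (adjusted p = 3.1e-04). Yars2, the mitochondrial tyrosyl enzyme, was the most variable synthetase, at 8.59, 8.89 and 8.79 in Si1 and 8.22, 8.55 and 8.47 in Si6 cells, against 8.04, 8.10 and 7.60 in the negative control. Its differences were 0.84 ± 0.126 (adjusted p = 5.6e-05) and 0.50 (adjusted p = 0.006), the third negative control array lying well below the other pair. Cars2, the mitochondrial cysteinyl enzyme, read 8.99, 8.95 and 9.14 in Si1 and 8.76, 8.78 and 8.75 in Si6 cells, against 8.42, 8.48 and 8.44 in the negative control, differences of 0.58 ± 0.054 and 0.32. Aars2 (alanyl) was 0.56 and 0.37 higher (adjusted p = 4.7e-06 and 3.6e-04).

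Iars2 and Tars2 responded differently to the 2 siRNAs. Iars2, the mitochondrial isoleucyl enzyme, read 9.02, 8.95 and 8.99 in Si1 and 9.64, 9.68 and 9.72 in Si6 cells, against 9.36, 9.29 and 9.27 in the negative control. It thus fell by 0.32 with Si1 (adjusted p = 6.3e-05) and was 0.37 higher with Si6 (adjusted p = 2.2e-05), the only synthetase called in opposite directions. Tars2, the mitochondrial threonyl enzyme, read 7.85, 7.90 and 7.89 in Si1 and 8.38, 8.33 and 8.38 in Si6 cells, against 7.67, 7.74 and 7.70 in the negative control, differences of 0.18 ± 0.054 (adjusted p = 0.018) and 0.66 (adjusted p = 2.1e-07). The rise of Tars2 with Si1 missed the threshold without Si1 b or negative control a (adjusted p = 0.053 to 0.067). Nars2, the mitochondrial asparaginyl enzyme, was 0.29 ± 0.064 higher with Si1 (adjusted p = 0.002), but its second probe set, with a mean of 6.88, gave -0.04 ± 0.122.

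Melanocyte markers moved with these groups too, relative to the negative control. With Si1, 0 of 10 rose and 6 fell, against 20.2% and 14.8% of all genes. With Si6, 5 rose and 1 fell, against 17.0% and 11.9% of all genes. In bulk RNA, fewer cells of a state and less RNA per cell cannot be told apart. The 2 other markers above the median gene moved as well: Cd68 was 1.33 higher with Si1 (adjusted p = 4.2e-09) and at 0.19 with Si6 (adjusted p = 0.094), and Col1a1 was lower with both (-0.81 and -0.36, adjusted p = 2.0e-06 and 0.005). The markers' part in the synthetase differences was not tested.

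For 12 amino acids the genes chosen here include 1 cytosolic and 1 mitochondrial gene that each serve that amino acid alone, and both were measured. The cytosolic gene had the larger difference in 12 of 12 pairs with Si1 (median gap 0.66) and in 12 of 12 with Si6 (median gap 0.34). With Si1 the gap was widest for isoleucine, at 1.02 for Iars and -0.32 for Iars2, and narrowest for serine, at 0.32 for Sars and 0.15 for Sars2, among these 12. With Si6 it was widest for cysteine, at 1.03 for Cars and 0.32 for Cars2, and narrowest for histidine, at 0.26 for Hars and 0.14 for Hars2. Phenylalanine, glutamate and proline were also measured in both classes but stand outside the 12 pairs, since the cytosolic phenylalanyl enzyme has 2 subunits and Eprs serves 2 amino acids. With Si1, Eprs (0.33) stood close to Ears2 (0.29) and above Pars2 (0.14), and with Si6 Eprs was at 0.51, Ears2 at 0.24 and Pars2 at 0.29. Farsa and Farsb were at 0.51 and 0.63 with Si1 and at 0.33 and 0.46 with Si6, while Fars2 was at -0.13 with Si1 and 0.04 with Si6. Hars and Hars2 are neighbouring protein-coding genes on chromosome 18 in the RefSeq annotation (GRCm38.p6). Hars read 9.38, 9.31 and 9.56 in Si1 and 9.21, 9.24 and 9.22 in Si6 cells, against 9.03, 8.97 and 8.90 in the negative control, without overlap. Hars2 read 7.86, 7.86 and 7.98 in Si1 and 7.91, 8.08 and 7.99 in Si6 cells, against 7.94, 7.88 and 7.77 in the negative control, with overlap, and passed neither test (adjusted p = 0.678 and 0.115).

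The same split shows array by array when each gene is set against its own normoxia mean and the class is averaged. The cytosolic mean was 0.52 ± 0.05 in Si1, 0.38 ± 0.03 in Si6, -0.20 ± 0.02 in the negative control and -0.16 ± 0.02 in the hypoxia control (SD, n = 3 each). The mitochondrial mean was 0.05 ± 0.06 in Si1, 0.11 ± 0.01 in Si6, -0.17 ± 0.06 in the negative control and -0.13 ± 0.03 in the hypoxia control. Cytosolic minus mitochondrial came to 0.50, 0.45 and 0.47 on the Si1 arrays and 0.26, 0.30 and 0.26 on the Si6 arrays, against -0.05, -0.08 and 0.03 in the negative control. The siRNA arrays thus lay apart from the negative control and from each other. The mean over all genes stayed within 0.02 of normoxia in every group. Array normalization can hold that mean near constant, so it does not show whether all genes shifted together. Probe sets of mitochondrial synthetases were dimmer: their means ranked from the 57.1st to the 83.8th percentile of genes, against the 78.5th to the 98.0th for cytosolic ones. Array processing compresses differences of dim probe sets, and its part in the gap between the classes was not tested.

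**Figure D3:**
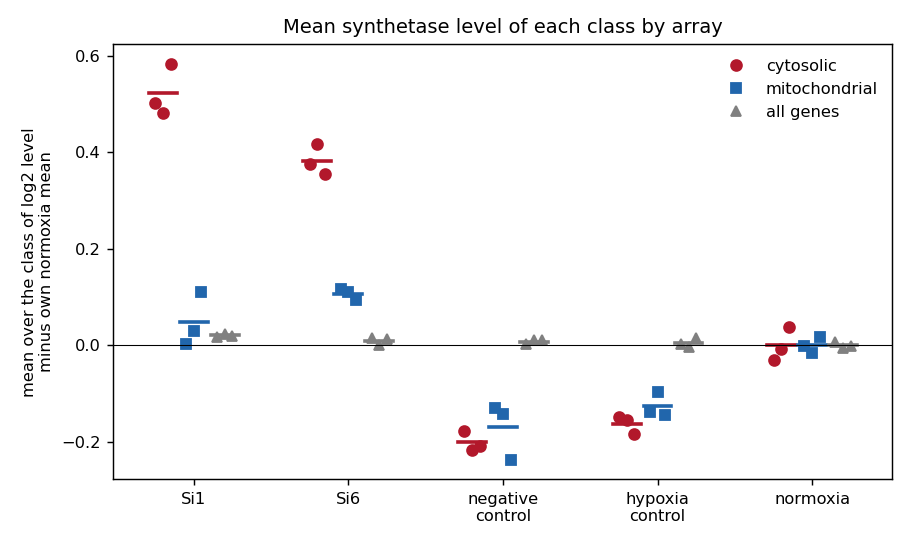
Mean log2 difference from normoxia on each array for cytosolic synthetases, mitochondrial synthetases and all genes, by group, with 1 point per array. The cytosolic points of Si1 and Si6 lie between 0.36 and 0.58 and those of both hypoxic controls below 0.

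Promoter sequence was read for the 25 synthetases with an entry in the RefSeq promoter table (GRCm38.p6), 11 cytosolic and 14 mitochondrial, over 250 bases before and 50 after the annotated start. The core of the amino acid response element, bound by ATF4 with a C/EBP partner and searched as TGATGCAA or, on the other strand, TTGCATCA, was present in 3 of 11 cytosolic windows (27.3%), in 0 of 14 mitochondrial windows and in 279 of all 27025 genes (1.03%). The 3 genes are Iars, Tars and Yars, whose differences stand above at 0.77 to 1.03. Their sequences are shown because they carry this match, given on the gene's strand with the match in capitals, at chr13:49682111-49682170 (plus strand) for Iars, chr15:11399640-11399699 (minus strand) for Tars and chr4:129189880-129189939 (plus strand) for Yars. Counted from the start site, with negative positions upstream, the first base of the match is at 8 in Iars, at -15 in Tars and at 4 in Yars.
Iars: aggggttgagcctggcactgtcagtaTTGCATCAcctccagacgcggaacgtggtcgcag
Tars: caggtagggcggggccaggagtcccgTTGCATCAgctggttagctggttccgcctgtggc
Yars: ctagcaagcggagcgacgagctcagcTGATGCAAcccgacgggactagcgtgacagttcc
Gars and Mars, which rose as much as these or more, held no match of any motif searched, as did Sars, Qars and Farsa, which says only that these letters are not in this window. Cars, Lars, Nars, Vars, Wars, Rars and Hars were not in the table.

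The E-box CACGTG, a site of MYC and MITF family proteins, was present in 3 of 11 cytosolic windows (27.3%), 1 of 14 mitochondrial windows (7.14%) and 8.09% of all genes. Iars and Tars thus hold both motifs, and Farsb and Ears2 the E-box without the amino acid response core. They are printed with the E-box in capitals, at chr13:49682035-49682092 (plus) for Iars, chr15:11399609-11399665 (minus) for Tars, chr1:78488905-78488962 (minus) for Farsb and chr7:122067037-122067091 (minus) for Ears2.
Iars: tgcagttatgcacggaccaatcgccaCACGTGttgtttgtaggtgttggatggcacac
Tars: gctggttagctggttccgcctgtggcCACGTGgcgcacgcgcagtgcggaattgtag
Farsb: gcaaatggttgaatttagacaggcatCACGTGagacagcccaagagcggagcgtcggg
Ears2: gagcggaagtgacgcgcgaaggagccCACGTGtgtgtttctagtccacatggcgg
The core of the hypoxia response element, ACGTG or CACGT on the other strand, lies within every CACGTG. It was found in 5 of 11 cytosolic windows (45.5%), 4 of 14 mitochondrial windows (28.6%) and 21.8% of all genes, and the cytosolic ones are Eprs, Farsb, Iars, Kars and Tars. These matches are letters in a window and were not tested as sites.

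In hypoxia part of the set was lower than in normoxia. Between the hypoxia control and normoxia, 7 of 18 cytosolic synthetases fell and 1 rose (median -0.16, range -0.50 to 0.24), and 4 of 16 mitochondrial ones fell and 0 rose (median -0.12, range -0.40 to 0.06; at an unadjusted p under 0.05, 5 fell and 0 rose). Over all genes 11.2% were called lower and 9.87% higher, with a median of 0. The fall was largest for Wars, which read 9.59, 9.56 and 9.54 in the hypoxia control, against 10.08, 10.02 and 10.08 in normoxia (-0.50 ± 0.047, adjusted p = 1.6e-06). Mars read 8.92, 8.95 and 8.87 in the hypoxia control, against 9.33, 9.31 and 9.35 in normoxia (-0.42 ± 0.057, adjusted p = 6.4e-05). Lars read 9.26, 9.16 and 9.25 in the hypoxia control, against 9.45, 9.57 and 9.74 in normoxia (-0.36 ± 0.086, adjusted p = 0.006). None of the 3 genes overlapped between the groups, but neither did the uncalled Farsa (adjusted p = 0.063) and Hars (adjusted p = 0.171). How often this holds over all genes was not counted. Cars (-0.29 ± 0.06, adjusted p = 0.002), Gars (-0.23 ± 0.046, adjusted p = 0.002), Tars (-0.17 ± 0.059, adjusted p = 0.050, just under the threshold) and Farsb (-0.16 ± 0.051, adjusted p = 0.032) also fell. The call of Tars was lost when any of 11 arrays was left out (adjusted p = 0.051 to 0.184), and that of Farsb without hypoxia control b or c or any normoxia array (adjusted p = 0.055 to 0.116).

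Eprs went the other way. It read 10.10, 10.08 and 10.07 in the hypoxia control, against 9.91, 9.78 and 9.83 in normoxia, without overlap (0.24 ± 0.057, adjusted p = 0.006). With the negative control as the hypoxic group its difference was 0.14 (adjusted p = 0.086).

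**Figure D4:**
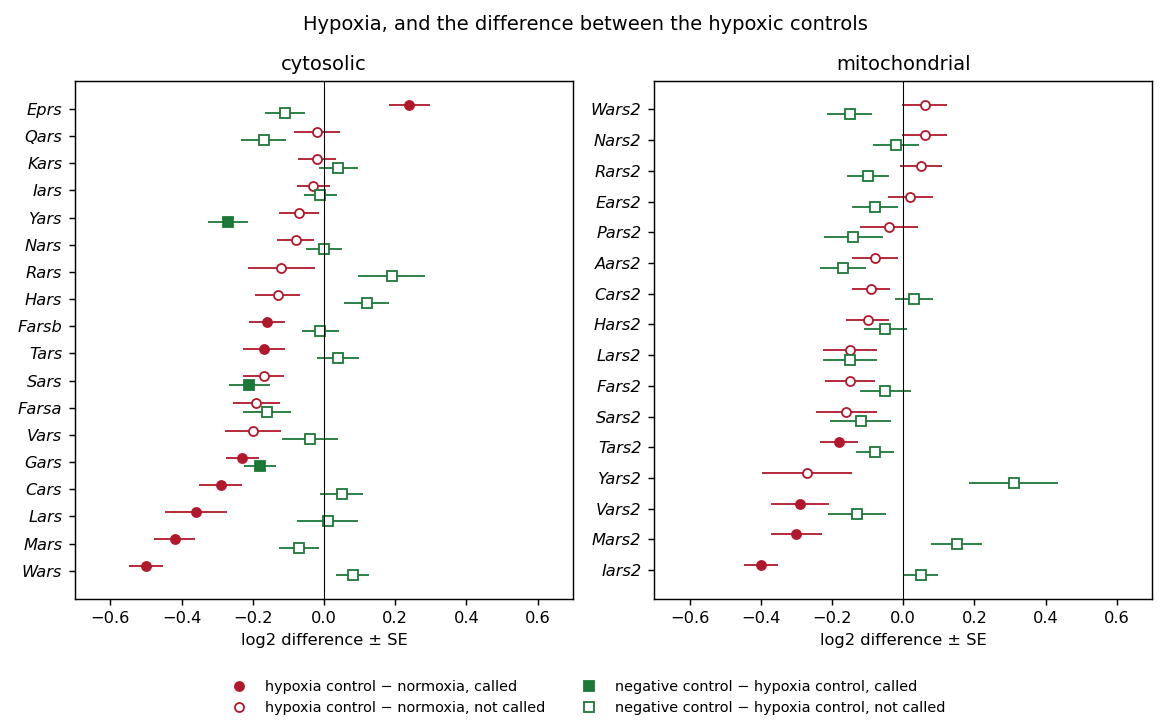
Log2 difference with its SE for each synthetase, for the hypoxia control minus normoxia (circles) and the negative control minus the hypoxia control (squares), filled where called. Most circles lie left of 0, from Wars at -0.50, while Eprs is at 0.24, and 3 squares are filled.

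Among mitochondrial synthetases the fall was largest for Iars2, at 9.28, 9.29 and 9.20 in the hypoxia control, against 9.65, 9.66 and 9.67 in normoxia (-0.40 ± 0.048, adjusted p = 2.0e-05). Mars2 read 7.54, 7.53 and 7.46 in the hypoxia control, against 7.87, 7.70 and 7.87 in normoxia (-0.30 ± 0.072, adjusted p = 0.006). Vars2, the mitochondrial valyl enzyme, read 8.25, 8.43 and 8.32 in the hypoxia control, against 8.59, 8.66 and 8.63 in normoxia (-0.29 ± 0.081, adjusted p = 0.016). The hypoxic arrays of these genes all lay below the normoxic ones, as did those of the uncalled Cars2 (adjusted p = 0.265) and Hars2 (adjusted p = 0.293). Tars2 fell by 0.18 ± 0.054 (adjusted p = 0.027). Only 2 mitochondrial genes were called without hypoxia control a, where Tars2 and Vars2 missed the threshold, and Tars2 also did so without hypoxia control b or normoxia a or c (adjusted p = 0.079 to 0.114). Vars2 missed it without normoxia b as well (adjusted p = 0.053 to 0.074). In the same comparison 6 of 10 melanocyte markers fell and 0 rose, against 11.2% and 9.87% of all genes. Col1a1 fell (-1.0, adjusted p = 7.1e-07) and Cd68 rose (0.46, adjusted p = 6.1e-04). The part of these markers in the synthetase differences was not tested.

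The negative control, the other hypoxic group without Hif1a siRNA, gave 11 cytosolic genes lower than normoxia and 7 mitochondrial ones, with 0 higher in either class. Over all genes 15.7% were called lower and 14.6% higher in this comparison. It shares the normoxia arrays with the comparison above. Of the genes called lower with the hypoxia control, 6 of 7 cytosolic and 3 of 4 mitochondrial ones were also called lower here, Tars (-0.13, adjusted p = 0.119) and Mars2 (-0.15, adjusted p = 0.130) being the exceptions. Farsa, Qars, Sars, Vars, Yars, Aars2, Fars2, Lars2 and Sars2 were called here only, and of these Sars and Yars differed between the 2 hypoxic controls by the direct test.

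Set directly against the hypoxia control, the negative control had 3 of 18 cytosolic synthetases lower and 0 higher (median -0.01, range -0.27 to 0.19). By limma, 0 of 16 mitochondrial ones were called in either direction (median -0.08, range -0.17 to 0.31), with 1 higher and 2 lower at an unadjusted p under 0.05. Over all genes, 7.51% were called lower and 7.80% higher. Yars read 8.96, 8.94 and 9.06 in the negative control, against 9.30, 9.28 and 9.21 in the hypoxia control (-0.27 ± 0.057, adjusted p = 0.003). Sars read 10.43, 10.30 and 10.50 in the negative control, against 10.64, 10.61 and 10.61 in the hypoxia control (-0.21 ± 0.058, adjusted p = 0.020). Gars read 9.81, 9.84 and 9.88 in the negative control, against 10.06, 10.00 and 10.01 in the hypoxia control (-0.18, adjusted p = 0.014). All 3 genes were without overlap, as were the uncalled Farsa (adjusted p = 0.138) and Wars (adjusted p = 0.306). Only Yars was called without hypoxia control a, where Gars and Sars missed the threshold. Gars also missed it without negative control a (adjusted p = 0.061 to 0.066) and Sars without negative control b or hypoxia control b or c (adjusted p = 0.052 to 0.110). The differences between the 2 hypoxic controls, at most 0.27 for cytosolic genes, compare with siRNA differences of up to 1.46, which use the same negative control arrays. For mitochondrial genes the controls differed by at most 0.31, for Yars2, which was not called. The siRNA differences of that class reached 0.85, with medians of 0.14 for Si1 and 0.29 for Si6. In this comparison 9 of 10 melanocyte markers fell and Col1a1 rose (0.43, adjusted p = 0.003), and their part in these differences was not tested.

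The 2 siRNAs, compared directly, differed for about as many synthetases as not. Of the cytosolic genes 9 of 18 were higher with Si1 than with Si6 and 2 lower (median 0.18, range -0.28 to 0.44). Of the mitochondrial genes 3 of 16 were higher and 4 lower (median -0.09, range -0.69 to 0.43), and with median centring of the arrays 2 were higher and 5 lower. Over all genes 14.5% were called higher and 13.4% lower. Wars differed most among the higher ones, at 10.28, 10.28 and 10.26 in Si1, against 9.82, 9.88 and 9.79 in Si6 cells (0.44, adjusted p = 2.9e-06). Its Si6 arrays lay between the hypoxic controls, at 9.60 to 9.69 in the negative control and 9.54 to 9.59 in the hypoxia control, and normoxia, at 10.02 to 10.08, and its Si1 arrays lay above normoxia. Nars (0.39, adjusted p = 2.5e-05) and Vars (0.37, adjusted p = 0.002) followed, Vars reading 9.73, 9.59 and 9.81 in Si1, against 9.41, 9.35 and 9.25 in Si6 cells.

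Sars and Eprs were the 2 cytosolic enzymes lower with Si1. Sars read 10.71, 10.75 and 10.74 in Si1, against 10.98, 11.10 and 10.98 in Si6 cells (-0.28, adjusted p = 0.001), and Eprs 10.35, 10.23 and 10.34 in Si1, against 10.57, 10.48 and 10.41 in Si6 cells (-0.18, adjusted p = 0.029). Neither gene overlapped between the siRNAs, nor did the uncalled Yars (adjusted p = 0.175). Among mitochondrial enzymes, Iars2 (-0.69, adjusted p = 3.6e-08) and Tars2 (-0.49, adjusted p = 4.7e-06) were lower with Si1 than with Si6 by most, and Lars2 (-0.31 ± 0.076, adjusted p = 0.006) and Vars2 (-0.26, adjusted p = 0.023) lower too. Mars2 (0.43, adjusted p = 2.3e-04), Cars2 (0.27, adjusted p = 0.001) and Aars2 (0.18, adjusted p = 0.048) were higher with Si1. Aars2 read 8.13, 8.08 and 8.29 in Si1, against 8.10, 7.87 and 7.99 in Si6 cells, with overlap. Its call was lost when any of 13 arrays was left out (adjusted p = 0.055 to 0.225), that of Hars without any array of Si6 or without Si1 a or c (adjusted p = 0.050 to 0.170), and that of Eprs without Si1 b or Si6 a or b (adjusted p = 0.064 to 0.132). Farsb lost its call without Si1 b or c or Si6 a (adjusted p = 0.053 to 0.081) and Vars2 without Si1 a or b or Si6 a (adjusted p = 0.051 to 0.123). For Mars the siRNAs differed by 0.06 ± 0.057 (adjusted p = 0.551) and for Kars by 0.04 ± 0.054 (adjusted p = 0.709). All 10 melanocyte markers were lower with Si1 than with Si6, against 13.4% of all genes. Cd68 was higher with Si1 (1.13, adjusted p = 4.4e-08) and Col1a1 lower (-0.45, adjusted p = 9.5e-04). Hif1a itself was lower with Si1 (-0.28, adjusted p = 0.001). The part of these genes in the synthetase differences was not tested.

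**Figure D5:**
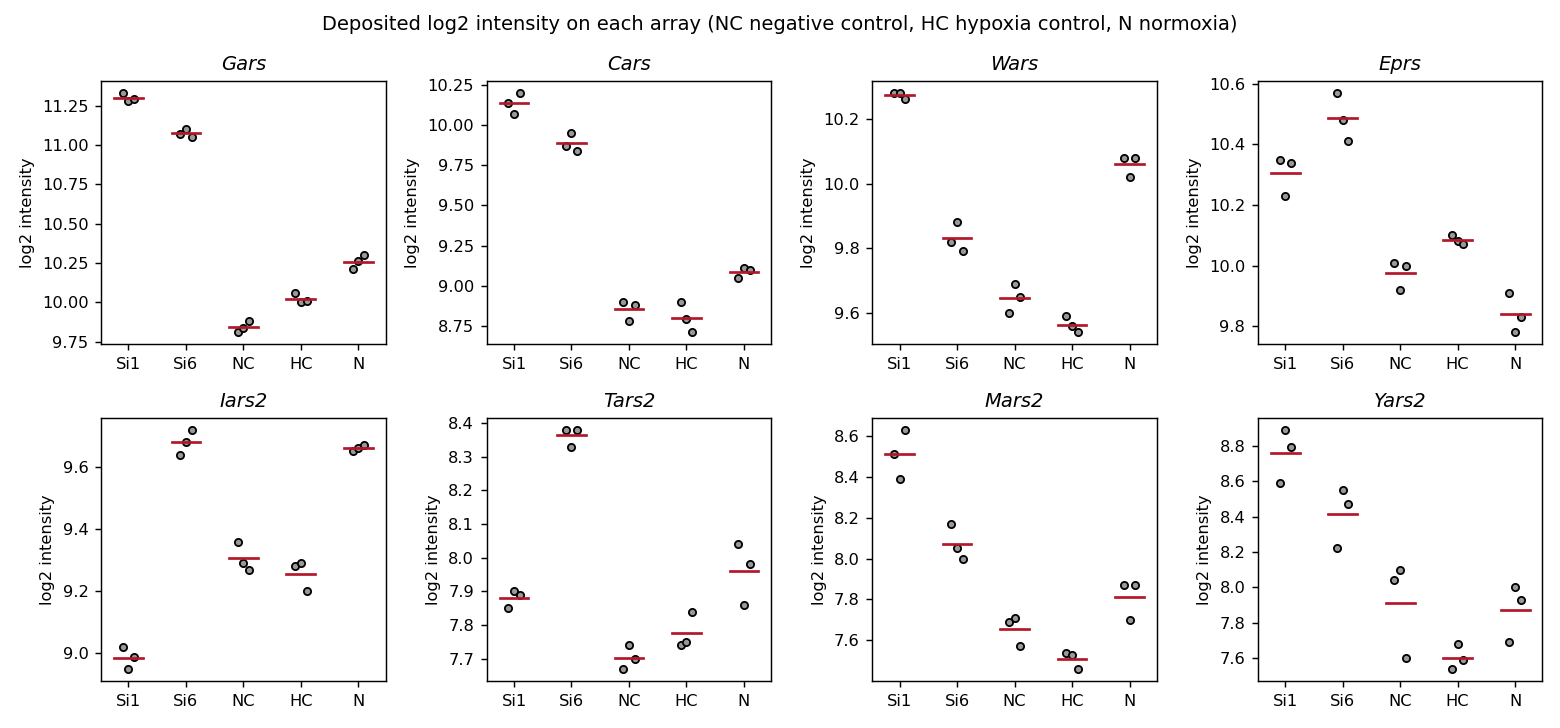
Deposited log2 intensity of 8 synthetases on each array, with a line at each group's mean, for Si1, Si6, the negative control (NC), the hypoxia control (HC) and normoxia (N). Gars and Cars are high with both siRNAs, Iars2 is lowest with Si1, Tars2 is highest with Si6, and Eprs is lowest in normoxia.

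Other genes around tRNA charging give the setting. The shares of all genes called higher and lower were 20.2% and 14.8% with Si1 and 17.0% and 11.9% with Si6. They were 9.87% and 11.2% in the hypoxia control relative to normoxia and 7.80% and 7.51% in the negative control relative to the hypoxia control. Between Si1 and Si6 they were 14.5% and 13.4%. The counts of each list below stand against these shares. Of 22 measured amino acid response genes, 18 rose and 1 fell with Si1 (median 0.76) and 18 rose and 0 fell with Si6 (median 0.75). The leading ones with Si1 were Chac1, a glutathione-degrading enzyme (2.27 with Si1 and 1.83 with Si6), Slc7a11, the cystine transporter (2.11 and 1.94), Slc1a4, a neutral amino acid transporter (1.88 and 1.43), and Mthfd2 of mitochondrial folate metabolism (1.86 and 1.54). Atf4 itself was 0.70 higher with Si1 (adjusted p = 2.5e-07) and 0.61 higher with Si6 (adjusted p = 1.9e-06). It was lower in the hypoxia control than in normoxia (-0.28, adjusted p = 0.004). Atf5, Ddit3, Trib3 and Cebpg were also called higher with both siRNAs, and Cebpb with neither. Eif2ak4, the kinase GCN2 that senses uncharged tRNA, was the 1 gene that fell with Si1 (-0.20, adjusted p = 0.015) and was at 0.10 with Si6 (adjusted p = 0.243). In the hypoxia control relative to normoxia 12 of the 22 fell and 1 rose (median -0.17), led by Shmt2, the mitochondrial serine hydroxymethyltransferase (-0.76), Slc7a5, the large neutral amino acid transporter (-0.73), and Chac1 (-0.64). In the negative control relative to the hypoxia control 3 rose and 4 fell, and between Si1 and Si6 6 were higher and 3 lower.

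Scaffolds of the multisynthetase complex and other relatives of the synthetases, taken as 1 list, did not move in the same direction. The 3 genes lower with Si1 were Prorsd1, Dtd1 and Dtd2, and neither of the scaffolds named below fell. Of 5 measured of 9 listed, 1 rose and 3 fell with Si1, 2 rose and 0 fell with Si6, 1 rose in the hypoxia control and 1 rose in the negative control relative to the hypoxia control. Eef1e1, the AIMP3 scaffold, was 0.82 higher with Si1 and 0.20 higher with Si6, and Dtd2, a deacylase that clears mischarged tRNA, was -0.38 with Si1 and 0.24 with Si6. Aimp1, another scaffold, was at 0.08 with Si1 and 0.09 with Si6, called with neither, and was higher in the hypoxia control than in normoxia (0.27, adjusted p = 0.016). Of 11 cytosolic tRNA modification and export genes, 10 rose and 0 fell with Si1 (median 0.63) and 8 rose and 1 fell with Si6 (median 0.31), with 2 higher and 4 lower in hypoxia. Trmt61a, of the tRNA m1A methyltransferase, was 0.97 higher with Si1 and 0.51 higher with Si6, Xpot, the tRNA export receptor, 0.76 and 0.95, and Nsun2, a tRNA m5C methyltransferase, 0.26 and -0.33. Cytosolic elongation factors moved less, with 4 of 7 higher with Si1, 3 of 7 with Si6 and 0 lower with either, Eif5a being 0.55 and 0.35 higher.

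On the mitochondrial side, 10 of 13 charging accessories and tRNA maturation genes rose with Si1 and 9 of 13 with Si6, with 0 lower (medians 0.24 and 0.27), and 5 fell and 0 rose in hypoxia. Mitochondria lack a dedicated glutaminyl enzyme and convert glutamyl-tRNA instead, through an amidotransferase of which Qrsl1, Gatb and Gatc are the subunits. Qrsl1 was 0.73 higher with Si1 and 0.70 higher with Si6, Gatc 0.23 and 0.75, and Gatb 0.02 (adjusted p = 0.906) and 0.28 (adjusted p = 0.007). Ears2, which supplies that glutamyl-tRNA, was 0.29 ± 0.064 higher with Si1 (adjusted p = 0.002) and 0.24 higher with Si6 (adjusted p = 0.009). Of 10 mitochondrial translation factors, 3 rose and 2 fell with Si1, against 20.2% and 14.8% of all genes. With Si6, 5 rose and 1 fell, against 17.0% and 11.9% of all genes. Tufm, the mitochondrial elongation factor Tu, was 0.69 higher with Si1 and stood at 0.01 with Si6 (adjusted p = 0.942), and Gfm1, mitochondrial elongation factor G1, was 0.60 and 0.52 higher.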

How the data were processed

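RNA from 15 cultures of 1 melanocyte line was hybridised as biotin-labelled cRNA, per the labels' protocols. The authors deposited 1 table of log2 intensities with 41345 probe sets; per the submitters' processing notes, RMA and Partek were used, with no version or order stated. RMA, where quantile-normalized, makes a shift of all genes together invisible and compresses differences of dim probe sets. Detection calls, filters and batches are not given in the sources, so no gene was called absent.

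Groups came from the labels. Of the probe sets, the platform annotation gives 23521 a single gene symbol, 1814 more than 1 and 16010 none, and the first kind was used. Entrez identifiers matched the RefSeq table (GRCm38.p6) for 23328 of them and changed 0 symbols. The probe set with the highest mean stood for each of 1082 genes with several, which left 22180 genes; among the synthetases only Nars2 has a second probe set.

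A linear model with a mean for each of the 5 groups was fitted over the 15 arrays (limma 3.58.1, R 4.3.3, eBayes), and two-sided p-values were adjusted by Benjamini-Hochberg across the 22180 genes, with a threshold of 0.05. In simulated data for Si1 minus the negative control over 22180 genes, the share called was 26.9% at a change of 0.25, 86.6% at 0.5, 98.5% at 1 and 0.0318% of unchanged genes. Only 200 genes were changed in the simulation, while 7750 were called in the data. The adjusted threshold depends on how many genes differ, so these shares do not carry over to the data. The classes and lists are described by counts and medians, with no test over their members.

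The synthetases, lists and motifs were chosen with earlier results of these data known. Array values are given for the 3 largest called differences of each class and comparison, for calls against their class's direction, and for Farsa, Farsb, Hars, Hars2, Gars, Kars, Wars and Eprs. Iars, Qars, Eif2ak4, Gatb and Nsun2 fall outside that rule and were named after their values were seen. So were Atf4, Atf5, Ddit3, Trib3, Cebpb and Cebpg. Replicate letters were checked as pairs: deviations from group means correlated at -0.29 to 0.24 between arrays of the same letter (median 0), over 0.1 in 4 of 30 pairs, so the letters were taken as names. Alternatives were 11 other settings and leaving out each of the 15 arrays. Proteins and scanner files were not used here.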

Additional observations from a re-analysis of the deposited data

Results flagged for a closer look

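The differences listed here were flagged because the effect of Si1, relative to the shared negative control, differed from that of Si6. The rule was limma's direct test of Si1 minus Si6 (adjusted p below 0.05 over all genes). It called 14.5% of all genes higher and 13.4% lower, so a call alone does not set a gene apart. The calls of Aars2, Hars, Farsb, Eprs and Vars2 were lost when certain single arrays were left out. Among cytosolic synthetases the log2 difference was 0.44 for Wars, 0.39 for Nars, 0.37 for Vars, 0.25 for Cars, 0.25 for Iars, 0.23 for Gars, 0.23 for Tars, 0.19 for Hars, 0.17 for Farsb, -0.18 for Eprs and -0.28 for Sars. Among mitochondrial synthetases it was 0.43 for Mars2, 0.27 for Cars2, 0.18 for Aars2, -0.26 for Vars2, -0.31 for Lars2, -0.49 for Tars2 and -0.69 for Iars2. For Iars2 the siRNAs moved the gene in opposite directions from the negative control, at -0.32 with Si1 and 0.37 with Si6. Hif1a was lower with Si1 than with Si6 (-0.28), and the part of that gap in these differences was not tested.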

How the results depend on the processing

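Over 170 synthetase results, a value counted as reversed only if its sign changed and the main or the other fit called it. By that rule 0 of 1734 values under the 11 other settings and 0 of 2550 with 1 array left out reversed. Of these, 1658 and 2469 stayed on the same side of the threshold, 32 and 67 lost a call, and 44 and 14 gained one. Uncalled values that changed sign count among those that stayed. Yars2 in hypoxia, for example, was -0.27 with the hypoxia control and 0.04 with the negative control. When the negative control replaced the hypoxia control as the hypoxic group, the hypoxia medians were -0.21 for cytosolic and -0.17 for mitochondrial genes, and 7 mitochondrial genes were called instead of 4. For the negative control minus the hypoxia control, 1 mitochondrial gene was called with quantile normalization, with the lowest 50% of genes left out or with array weights, against 0 without, and 1 cytosolic gene instead of 3 with only the compared groups fitted. Quantile normalization gave Si1 medians of 0.66 (cytosolic) and 0.08 (mitochondrial) and a mitochondrial Si6 median of 0.24. Median centring gave Si6 medians of 0.57 and 0.33 and a cytosolic Si1 minus Si6 median of 0.14. Nars2 lost its call with Si1 under the mean of its probe sets (0.12, adjusted p = 0.223). The cause of these changes was not tested.

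With each array left out in turn, called counts were 6 to 9 cytosolic and 2 to 4 mitochondrial for hypoxia (medians -0.18 to -0.15 and -0.13 to -0.09) and 1 to 3 and 0 to 1 for the negative control minus the hypoxia control. In that comparison the cytosolic median ran from -0.03 to 0.02, its sign turning to 0.02 without negative control c and 0.01 without hypoxia control a, and the mitochondrial one from -0.09 to -0.06. For Si1 they were 17 and 7 to 8 (medians 0.69 to 0.73 and 0.10 to 0.18), for Si6 15 to 17 and 9 to 11 (0.50 to 0.56 and 0.27 to 0.31), and for Si1 minus Si6 9 to 11 and 6 to 7 (0.13 to 0.21 and -0.12 to -0.06). With the replicate block, 6 instead of 8 cytosolic genes were called for hypoxia, Farsb (adjusted p = 0.052) and Tars (0.078) being lost, and for Si1 minus Si6 Hars (0.051) was lost and Yars2 (0.030) gained. The block changed no other call of a synthetase, and 4 of 15 arrays correlated best with their own letter.

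The results rest on 3 arrays a group, 1 cell line and log2 values without detection calls, with no measure of tRNA charging or protein. The median SE of a difference was 0.058 for cytosolic and 0.065 for mitochondrial synthetases.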
